A study of Mus musculus with 9 samples.

Results

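The glucocorticoid receptor and 6 genes tied to its signalling were followed through the livers of cisplatin-injured mice: Nr3c1, which encodes the receptor, Hsd11b1, which regenerates its hormone, and the target genes Fkbp5, Tsc22d3, Sgk1, Klf9 and Zbtb16. The members were taken by gene symbol, which gave 7 of the 57010 genes in the expression tables, and all 7 passed the filter on low counts. Bulk RNA-seq was run on liver of male BALB/c mice, with 3 libraries in each of 3 groups. Mice of the AT3 and CPT groups carry the same treatment label, acute liver injury brought on by cisplatin, a platinum cancer drug that damages DNA. The labels do not spell out AT3, and the title of the study names atractylenolide III, a plant sesquiterpene lactone whose effect on the injury the study set out to test. CON mice had no treatment. The design text gives an injection of DDP, a common abbreviation of cisplatin. Neither labels nor design text state the dose, the route, the time between injection and sampling, the age or the clock time of collection. The labels also do not say that the libraries of a group came from separate animals, so p-values measure only the spread between these libraries.

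Glucocorticoids are steroid hormones of the adrenal cortex, corticosterone in mice, and the liver is one of their main targets, where they raise glucose production and amino acid breakdown. The receptor waits in the cytosol in a complex built around the chaperone Hsp90; when hormone binds, it enters the nucleus and acts on glucocorticoid response elements, palindromes of 2 hexamer half-sites. Fkbp5 encodes a co-chaperone that binds Hsp90 and lowers the receptor's affinity for hormone, and the receptor induces it, which makes a feedback loop.

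Read depth lay between 21485021 and 28480479 estimated counts per library. Levels within a gene are given in CPM, counts scaled to the size of the library after TMM, and a change is called where the Benjamini-Hochberg adjusted p of edgeR's quasi-likelihood test over 13686 genes is under 0.05. The groups differed in make-up as well as in single genes. Mitochondrially encoded transcripts took 9.79% to 11.4% of counts in AT3, 11.2% to 16.3% in CPT and 25.8% to 36.8% in CON. Replacing TMM by library totals moved the median of all genes up by 0.38 on the log2 scale in both comparisons with CON, and log2(TPM + 1) moved it up by 0.50 (CPT against CON) and 0.57 (AT3 against CON), so changes against CON are relative to the TMM scaling. The defining markers of liver parenchyma were present: the 9 hepatocyte markers in the table summed to 87234 to 94403 CPM in AT3, 61881 to 76977 CPM in CPT and 78942 to 83120 CPM in CON. The 14 endothelial markers summed to 33.6 to 45.0 CPM in AT3, 27.6 to 38.0 CPM in CPT and 151 to 153 CPM in CON. Of the 14, 12 were called lower in CPT than in CON, where 30.8% of all tested genes were. The 12 stellate markers summed to 30.9 to 46.6, 48.9 to 57.1 and 226 to 256 CPM in the same groups. The 14 neutrophil markers went the other way, with 16.1 to 17.2 CPM in AT3, 27.0 to 55.0 CPM in CPT and 4.67 to 5.62 CPM in CON. Kupffer cell markers summed to 30.8 to 36.1, 26.1 to 34.4 and 48.1 to 62.9 CPM. The 7 erythroid markers summed to 38.4 to 44.5 CPM in AT3, 42.7 to 50.9 CPM in CPT and 798 to 908 CPM in CON. The part of these marker sums in the changes against CON was not tested. Whether fewer cells of a type or less RNA per cell gave such a sum cannot be told apart in bulk tissue.

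All 7 members were called in CPT against CON, where 60.8% of tested genes were called, 30% higher and 30.8% lower. Fkbp5 and Zbtb16 were higher in CPT, and Nr3c1, Hsd11b1, Tsc22d3, Sgk1 and Klf9 were lower, though Nr3c1 and Klf9 turned to the other side of 0 on TPM. With a background this high, a call by itself says little about a member. No member had an overlap between its CPT values and its CON values; over all genes 64.2% did not overlap, 31.5% with CPT higher and 32.7% with CPT lower. In AT3 against CPT, 3 of 7 were called, where 4.68% of tested genes were called, 2.46% higher and 2.22% lower. These 3 were Fkbp5, Tsc22d3 and Zbtb16, all higher in AT3. The libraries of 6 members did not overlap, all with AT3 above CPT, where 27% of genes did not overlap, 14.5% with AT3 higher and 12.5% with AT3 lower. Comparing AT3 with CON, 7 of 7 were called, where 64.4% of genes were (31.5% higher and 32.9% lower), with 2 members higher and 5 lower. No member's AT3 and CON libraries overlapped, as for 70.3% of genes, 34.5% with AT3 higher and 35.9% with AT3 lower. On TPM, 4 of those 5 lower members (Nr3c1, Tsc22d3, Sgk1 and Klf9) turned to higher values in AT3. The median log2 change of the 7 genes was −0.56 in CPT against CON, beside −0.02 for all tested genes. It was 0.29 in AT3 against CPT, beside 0 for all genes, and −0.53 in AT3 against CON, beside −0.04. The comparisons share libraries, so their counts are not independent of each other.

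**Figure D1:**
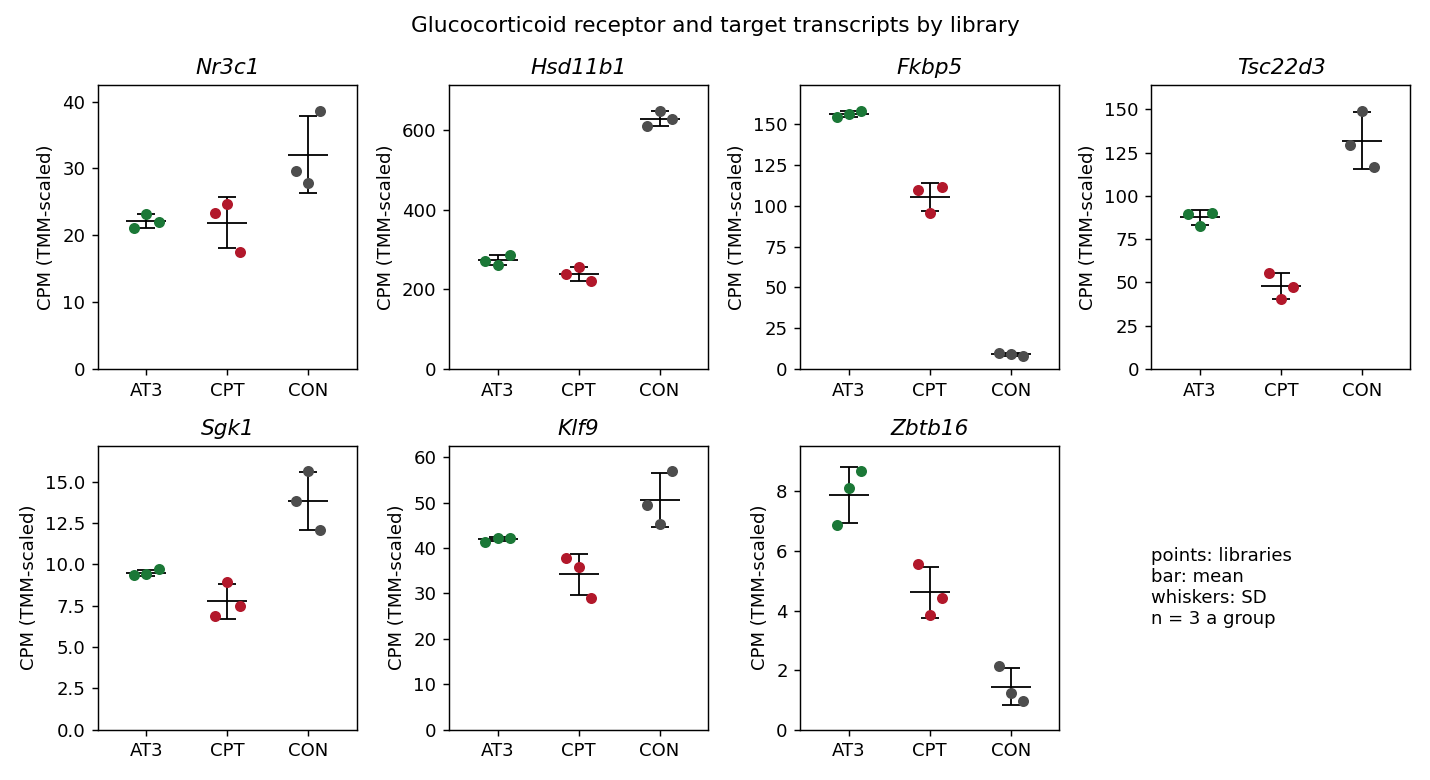
TMM-scaled CPM (linear axis from 0) of the 7 genes in each of the 9 libraries, with AT3, CPT and CON from left to right in each panel; points are libraries, bars are means and whiskers are SD (n = 3 a group). Fkbp5 and Zbtb16 step down from AT3 to CPT to CON, while the other genes are highest in CON on this scaling (of these, on mean TPM, Nr3c1, Tsc22d3, Sgk1 and Klf9 are highest in AT3).

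Levels between genes can be compared only per length, so TPM is used for that. Hsd11b1 was the most abundant member in every group, at 226 ± 4.09 TPM in AT3, 196 ± 16.1 TPM in CPT and 353 ± 63.3 TPM in CON (SD, n = 3 each, as in all ± values). Tsc22d3 and Fkbp5 came next in AT3, at 48.8 ± 1.83 and 46.0 ± 1.84 TPM, and in CPT, at 25.8 ± 2.95 and 29.2 ± 2.41 TPM. Within each of these groups the libraries of the pair overlapped. In CON, Tsc22d3 came next at 42.0 ± 10.1 TPM, but Fkbp5 was above Zbtb16 alone, at 1.65 ± 0.374 TPM. The transcription factor Klf9 lay below that pair in both injured groups, at 9.58 ± 0.460 TPM in AT3 and 7.31 ± 0.784 TPM in CPT. In CON it stood between Tsc22d3 and Sgk1, at 7.13 ± 0.376 TPM. Sgk1 and the receptor gene lay close together: Sgk1 had 4.20 ± 0.107 TPM in AT3, 3.24 ± 0.633 TPM in CPT and 4.10 ± 0.897 TPM in CON, and Nr3c1 had 3.52 ± 0.263, 3.26 ± 0.546 and 3.13 ± 0.202 TPM in the same groups. Their libraries overlapped in CPT and in CON but not in AT3. Zbtb16 was lowest in every group, at 1.57 ± 0.154 TPM in AT3, 0.853 ± 0.115 TPM in CPT and 0.18 ± 0.08 TPM in CON.

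Nr3c1, the receptor gene (GRCm38 18:39410545-39519421, minus strand), stood at 21.1, 23.2 and 22.03 CPM in the AT3 libraries, 23.4, 24.6 and 17.5 CPM in CPT, and 29.7, 27.8 and 38.6 CPM in CON. The AT3 and CPT libraries overlapped, and all 6 were below the lowest CON library. Receptor transcript was lower in CPT than in CON by a log2 change of −0.55 ± 0.14 (SE; edgeR adjusted p = 0.00293) on TMM scaling, but on library totals the change was −0.14 (adjusted p = 0.42) and on log2(TPM + 1) it was 0.037 (adjusted p = 0.823). AT3 differed from CPT by 0.02 ± 0.14 (adjusted p = 0.966), with a 95% interval of −0.28 to 0.31. Against CON, AT3 stood at −0.53 ± 0.14 (adjusted p = 0.00327), and this too turned to 0.13 on log2(TPM + 1).

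Hsd11b1 encodes the enzyme of the endoplasmic reticulum that turns inert keto-steroid back into active glucocorticoid, and hepatocytes are its main site. The gene spans GRCm38 1:193221634-193264075 on the minus strand and overlaps Lamb3 on the other strand. Lamb3 had 18 to 37 counts per library. The strand setting of the counting is not stated, so reads of the pair could not be separated by strand. Hsd11b1 had 271, 261 and 286 CPM in AT3, 239, 256 and 221 CPM in CPT, and 610.3, 648 and 626 CPM in CON. Every AT3 and CPT library lay below every CON library, and the AT3 libraries lay just above those of CPT. The enzyme's transcript was 2.63-fold lower in CPT than in CON (log2 change −1.40 ± 0.09, edgeR adjusted p = 6.47e-09). AT3 was lower than CON, with a log2 change of −1.20 ± 0.09 (adjusted p = 2.68e-08). Both held under every alternative tried; on log2(TPM + 1) they were −0.83 and −0.62. The difference of AT3 from CPT was 0.19 ± 0.09 and was not called (adjusted p = 0.258, 95% interval −0.0059 to 0.39).

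Fkbp5, the co-chaperone of the feedback loop (GRCm38 17:28399094-28517527, minus strand), had 154, 156 and 158 CPM in AT3, 110, 95.7 and 112 CPM in CPT, and 10.004, 8.95 and 7.82 CPM in CON. No libraries of the 3 groups overlapped, and the 3 AT3 values lay within a narrower band than those of CPT. Fkbp5 rose 11.8-fold in CPT over CON (log2 change 3.56 ± 0.11, edgeR adjusted p = 2.75e-12) and 17.5-fold in AT3 over CON (4.13 ± 0.12, adjusted p = 5.94e-13). AT3 was 1.48-fold above CPT (0.57 ± 0.10, adjusted p = 0.00479). Leaving out any 1 library kept that last call, with changes between 0.50 and 0.61; on library totals the change was 0.57 with an adjusted p of 0.0634, and on log2(TPM + 1) it was 0.64 with an adjusted p of 0.0639. The reads behind these values were 2904 to 3100 counts in the CPT libraries and 139 to 228 counts in the CON libraries.

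Zbtb16 encodes a BTB zinc-finger repressor also called PLZF, which glucocorticoid induces in several human cell types and which is also needed by natural killer T cells. It lies at GRCm38 9:48654297-48836222 on the minus strand. Its level was 6.86, 8.12 and 8.67 CPM in AT3, 5.55, 3.86 and 4.42 CPM in CPT, and 2.14, 1.22 and 0.957 CPM in CON. The 3 groups did not overlap, in the same order as for Fkbp5. Zbtb16 rose 3.24-fold in CPT over CON (log2 change 1.69 ± 0.24, edgeR adjusted p = 2.14e-05) and 5.54-fold in AT3 over CON (2.47 ± 0.23, adjusted p = 2.2e-07). AT3 was 1.71-fold above CPT (0.77 ± 0.19, adjusted p = 0.0345). That call rested on single libraries: the adjusted p was 0.144 without CPT replicate 2, 0.0783 without AT3 replicate 1, 0.127 without AT3 replicate 2 and 0.145 without AT3 replicate 3, with changes from 0.66 to 0.93 over all 9 such fits. The summed T and natural killer cell markers were 1.05 to 1.65 CPM in AT3, 1.34 to 1.65 CPM in CPT and 4.04 to 5.74 CPM in CON, so they were lower in both groups where Zbtb16 was higher. Of those 20 markers 2 passed the filter; Cd8a was at 0 in every AT3 library, Cd8b1 and Eomes in every CPT library and Klrb1c in every CON library. Their part in the Zbtb16 values was not tested.

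Tsc22d3 encodes GILZ, a leucine-zipper protein that carries part of the anti-inflammatory action of glucocorticoid by binding NF-kappaB and AP-1 (GRCm38 X:140539528-140600659, minus strand). It stood at 89.7, 82.6 and 90.3 CPM in AT3, 55.4, 40.7 and 47.6 CPM in CPT, and 129, 149 and 117 CPM in CON. Here CPT was lowest, AT3 lay between, CON was highest, and no groups overlapped. Tsc22d3 was 2.75-fold lower in CPT than in CON (log2 change −1.46 ± 0.12, edgeR adjusted p = 5.95e-08), a call kept under every alternative. It was 1.83-fold higher in AT3 than in CPT (0.87 ± 0.12, adjusted p = 0.00126), kept without any 1 library (0.77 to 0.99) and on library totals (adjusted p = 0.0102), with an adjusted p of 0.0544 on log2(TPM + 1). AT3 was below CON, with a log2 change of −0.59 ± 0.12 (adjusted p = 0.000427) on TMM scaling, but above it by 0.24 on log2(TPM + 1), so the order of AT3 and CON for this gene depended on the scaling.

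Sgk1 encodes a serum- and glucocorticoid-induced protein kinase that acts on ion channels and on FOXO factors (GRCm38 10:21882184-21999903, plus strand). Its values were 9.35, 9.43 and 9.71 CPM in AT3, 6.89, 8.94 and 7.50 CPM in CPT, and 13.8, 15.6 and 12.1 CPM in CON. On TMM scaling the groups stood in the same order as for Tsc22d3 and did not overlap. Sgk1 was lower in CPT than in CON (log2 change −0.83 ± 0.13, edgeR adjusted p = 3.88e-05), but on log2(TPM + 1) the change was −0.26 with an adjusted p of 0.177. AT3 was also lower than CON on TMM scaling (−0.55 ± 0.12, adjusted p = 0.00122), with 0.042 on log2(TPM + 1). AT3 differed from CPT by 0.29 ± 0.13, which was not called over all genes (adjusted p = 0.214, unadjusted 95% interval 0.016 to 0.55).

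Klf9, a Krüppel-like zinc-finger factor and an early target of both glucocorticoid and thyroid hormone (GRCm38 19:23141226-23168134, plus strand), stood at 41.4, 42.2 and 42.2 CPM in AT3, 37.7, 35.8 and 29.0 CPM in CPT, and 49.6, 45.3 and 56.9 CPM in CON. The 3 groups did not overlap, and the AT3 libraries lay within 1 CPM of each other. Klf9 was lower in CPT than in CON, with a log2 change of −0.56 ± 0.11 (edgeR adjusted p = 0.000459), but on log2(TPM + 1) the change was 0.028. AT3 was lower than CON, with a log2 change of −0.27 ± 0.11 (adjusted p = 0.0442), a call that 7 of the 9 fits without 1 library lost (adjusted p up to 0.223, without CON replicate 3) and that turned to 0.13 on library totals and to a called 0.38 on log2(TPM + 1) (adjusted p = 0.0145). AT3 differed from CPT by 0.29 ± 0.11 (adjusted p = 0.147, unadjusted 95% interval 0.056 to 0.53).

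**Figure D2:**
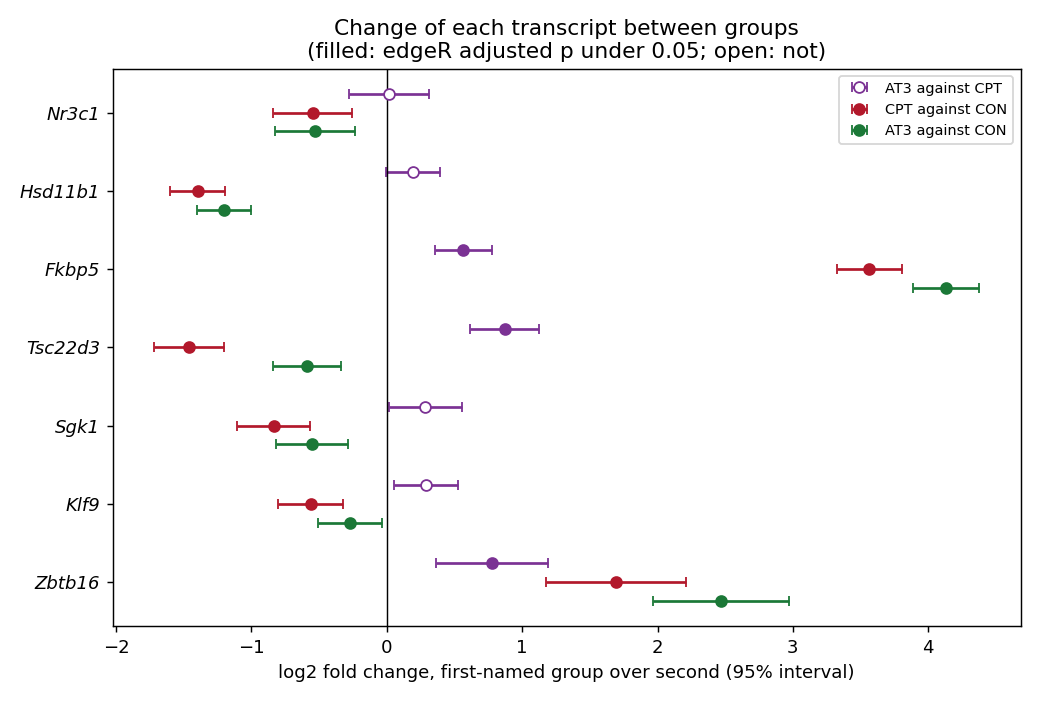
Log2 fold change of the 7 genes in each comparison, from edgeR on TMM-scaled counts, with whiskers for the unadjusted 95% interval and filled points where the adjusted p is under 0.05. Fkbp5 has the most positive change of the 7 against CON, at 3.56 in CPT and 4.13 in AT3, and Tsc22d3 has the most positive change in AT3 against CPT, at 0.87.

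The 3 members that were higher in AT3 than in CPT thus came from both patterns against CON. Fkbp5 and Zbtb16 were above CON in both injured groups, and AT3 was farther from CON than CPT was. Tsc22d3 was below CON in CPT, and on TMM scaling AT3 lay between CPT and CON.

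**Figure D3:**
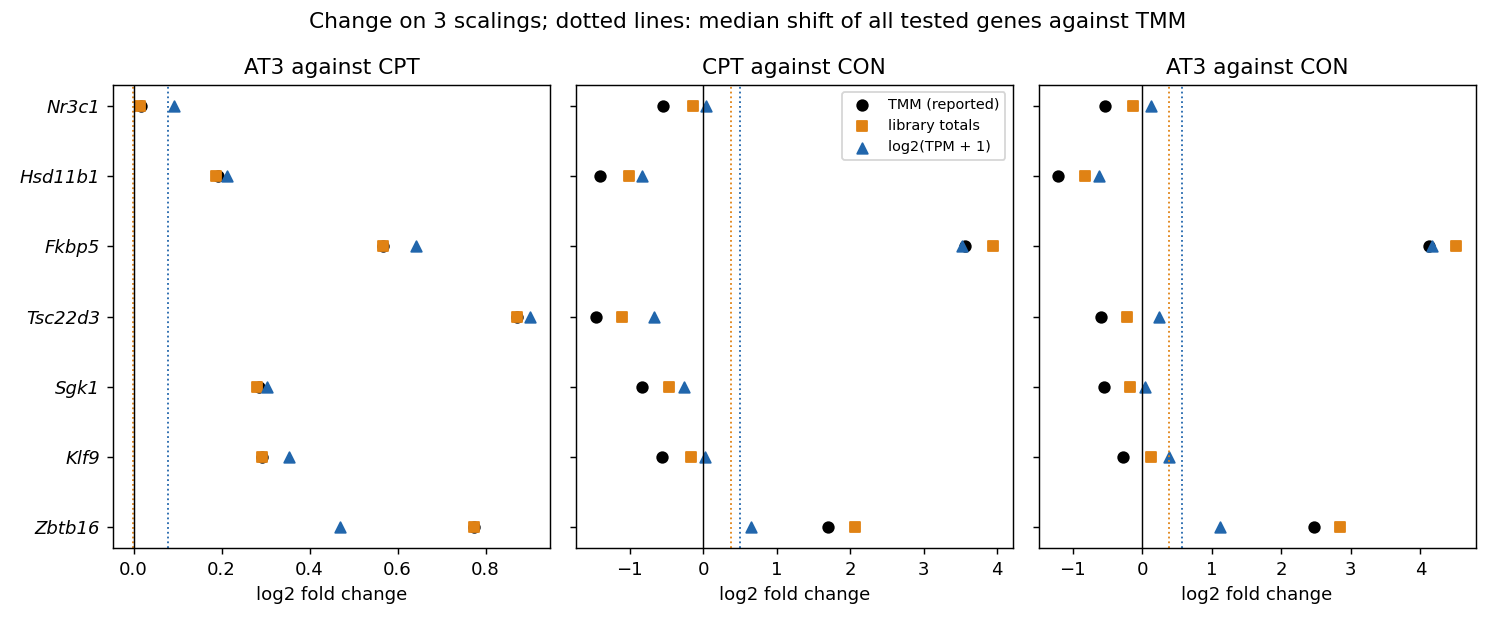
Log2 fold change of each gene on TMM scaling, on library totals and on log2(TPM + 1), with dotted lines at the median shift of all tested genes from TMM to each of the other 2 scalings and a solid line at 0. In AT3 against CPT the 3 scalings lie close together except for Zbtb16 on log2(TPM + 1) (0.47 against 0.77 on TMM), while against CON the other scalings sit to the right for Nr3c1, Hsd11b1, Tsc22d3, Sgk1 and Klf9.

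Promoter windows of members were read from RefSeq (GRCm38.p6, 250 bases before to 50 after a start site). The search covered 5 of the 7 genes by symbol, 12 windows in all. Nr3c1 and Zbtb16 were not searched. For Nr3c1 this does not mean that RefSeq lacks an entry, and nothing is said here about its promoter. The letters searched on both strands were the palindrome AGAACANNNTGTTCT, its half-site AGAACA or TGTTCT, and the E-box CACGTG, the site of the clock factors Arntl and Clock. The full palindrome stood in 1 window of Sgk1, with AGAACAGAATGTTCT at bases 62 to 76, which begins 189 bases before that start. Only 3 of 32851 mouse windows (0.00913%) hold this palindrome. The same Sgk1 window holds an E-box at bases 5 to 10 that overlaps a half-site at bases 9 to 14. The 250 bases before each start are shown for that window and for a window of each of the 2 members that kept a higher level in AT3 than in CPT without any 1 library, 5′ to 3′ on the gene's strand, with the matches in capitals.
Sgk1 window at chr10:21993640-21993889, plus strand: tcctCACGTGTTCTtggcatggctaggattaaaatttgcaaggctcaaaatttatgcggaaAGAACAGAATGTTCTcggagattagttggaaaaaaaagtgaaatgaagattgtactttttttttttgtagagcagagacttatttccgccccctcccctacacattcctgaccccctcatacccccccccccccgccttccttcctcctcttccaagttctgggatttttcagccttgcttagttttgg
Fkbp5 window at chr17:28486150-28486399, minus strand: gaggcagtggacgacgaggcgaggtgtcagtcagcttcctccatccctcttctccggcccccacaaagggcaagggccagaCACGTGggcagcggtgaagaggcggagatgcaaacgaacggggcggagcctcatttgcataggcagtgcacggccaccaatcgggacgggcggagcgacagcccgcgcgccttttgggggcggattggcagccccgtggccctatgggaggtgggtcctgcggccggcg
Tsc22d3 window at chrX:140600523-140600772, minus strand: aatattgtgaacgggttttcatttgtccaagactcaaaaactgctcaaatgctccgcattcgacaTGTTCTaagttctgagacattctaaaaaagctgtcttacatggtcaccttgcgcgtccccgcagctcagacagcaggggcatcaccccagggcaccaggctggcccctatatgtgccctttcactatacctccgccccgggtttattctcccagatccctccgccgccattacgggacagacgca
The capitals in the Fkbp5 window mark an E-box at bases 82 to 87, and those in the Tsc22d3 window mark the half-site TGTTCT at bases 66 to 71. The other 2 windows of Tsc22d3 held none of the motifs. Of the other Sgk1 windows, 2 held a half-site and no other match, and 3 held none. A half-site stands in 19% of the mouse windows searched and an E-box in 7.15%. The single windows of Hsd11b1 and Klf9 held none of the 3 motifs, which says only that these letters are not in them.

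Other target genes of the receptor were read from a list of 40, of which 38 passed the filter and Hif3a and Fam107a did not. In CPT against CON, 21 of the 38 were higher and 9 lower, where 30% of all tested genes were called higher and 30.8% lower. The median log2 change was 0.59, beside −0.02 for all tested genes. The metallothioneins Mt2 and Mt1, which bind metal ions and which metals also induce, and the iron-carrier binder Lcn2, which inflammation also induces, had the most positive changes of the list. Mt2 averaged 2802 ± 221 CPM in CPT and 1.15 ± 0.487 CPM in CON (log2 change 11.19), Mt1 5283 ± 322 and 10.01 ± 4.52 CPM (9.02), and Lcn2 3752 ± 161 and 4.86 ± 1.39 CPM (9.61). Per1, a repressor of the circadian clock, rose by 2.02, and Gadd45g, a stress-response gene, by 1.91. All 5 passed edgeR with adjusted p values of 1.01e-08 or less.

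Members of the list differed in direction. Tat, the tyrosine aminotransferase that is a classical glucocorticoid target of liver, averaged 2336 ± 77.3 CPM in AT3, 1590 ± 280.4 CPM in CPT and 461 ± 38.5 CPM in CON. Lpin1, a phosphatidate phosphatase, averaged 57.6 ± 2.98, 33.7 ± 6.38 and 6.23 ± 2.16 CPM in the same groups. G6pc, the last enzyme of glucose release, was lower in both injured groups, at 47.3 ± 4.28 CPM in AT3, 23.4 ± 8.996 CPM in CPT and 186 ± 4.57 CPM in CON. Pdk4, a kinase that shuts off pyruvate dehydrogenase, was lower in CPT (1.82 ± 0.449 CPM) than in CON (5.33 ± 0.714 CPM; log2 change −1.56, edgeR adjusted p = 2.75e-05). In AT3 against CON, 24 of the 38 were higher and 9 lower (median 0.54, beside −0.04 for all genes). Among all tested genes 31.5% were called higher and 32.9% lower there.

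Between AT3 and CPT, 11 of the 38 listed targets were higher in AT3 and 2 lower. That is 34.2% called, beside 4.68% of all tested genes, 2.46% higher and 2.22% lower. The median was 0.13, beside 0 for all genes. Cry1, a clock repressor, averaged 14.2 ± 0.902 CPM in AT3 and 7.06 ± 0.143 CPM in CPT (log2 change 1.01, edgeR adjusted p = 0.000742). Irs2, an adaptor of the insulin receptor, averaged 29.2 ± 1.62 CPM in AT3 and 16.4 ± 3.73 CPM in CPT (0.83, adjusted p = 0.00458). Pdk4 rose by 1.18 (adjusted p = 0.0101) and Ddc, an amino acid decarboxylase, by 0.59 (adjusted p = 0.0116). Gadd45g fell to 81.8 ± 6.38 CPM in AT3, against 130.9 ± 18.6 CPM in CPT (−0.68, adjusted p = 0.004). The remaining called genes, named after their values were seen, were the higher G6pc (1.02), Tat (0.55), Lpin1 (0.78), the insulin-like growth factor binder Igfbp1 (1.14), Tdo2 of tryptophan breakdown (0.55), Sds of serine breakdown (0.66) and the transcription factor Klf15 (0.41), and the lower NF-kappaB inhibitor Nfkbia (−0.40).

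Markers of cell types differed between these groups as well. The summed hepatocyte markers given above were higher in every AT3 library than in every CPT library (3 of 9 called higher). Those of neutrophils, 14 markers of which 9 passed the filter, were lower in every AT3 library than in every CPT library (3 of 9 called lower; Camp was at 0 in both groups and Mpo in AT3). Those of stellate cells, 12 markers, were lower too, again without overlap (2 of 12 called lower). Over all tested genes 2.46% were called higher in AT3 and 2.22% lower. The part of these markers in the target genes' values was not tested.

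Within the target list, Cry1, Irs2 and Gadd45g kept their calls in all 9 fits without 1 library, and the others did not. Pdk4 and Ddc lost theirs without AT3 replicate 1 or AT3 replicate 2 (highest adjusted p 0.0574 and 0.0553). The count of called targets was 6 without CPT replicate 2, 3 without AT3 replicate 1, 4 without AT3 replicate 2 and 6 without AT3 replicate 3, against 13 in the full fit. On library totals 5 were higher and 1 lower, and on log2(TPM + 1) 1 was higher and none lower. The count over all tested genes moved likewise. With all libraries 641 of 13686 genes were called. The filter on low counts was applied anew in each fit without 1 library, and the 6 fits given here tested 14085 to 14185 genes. Called were 354 without CPT replicate 1, 229 without CPT replicate 2 and 1316 without CPT replicate 3. Without AT3 replicates 1, 2 and 3 the counts were 178, 172 and 228.

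**Figure D4:**
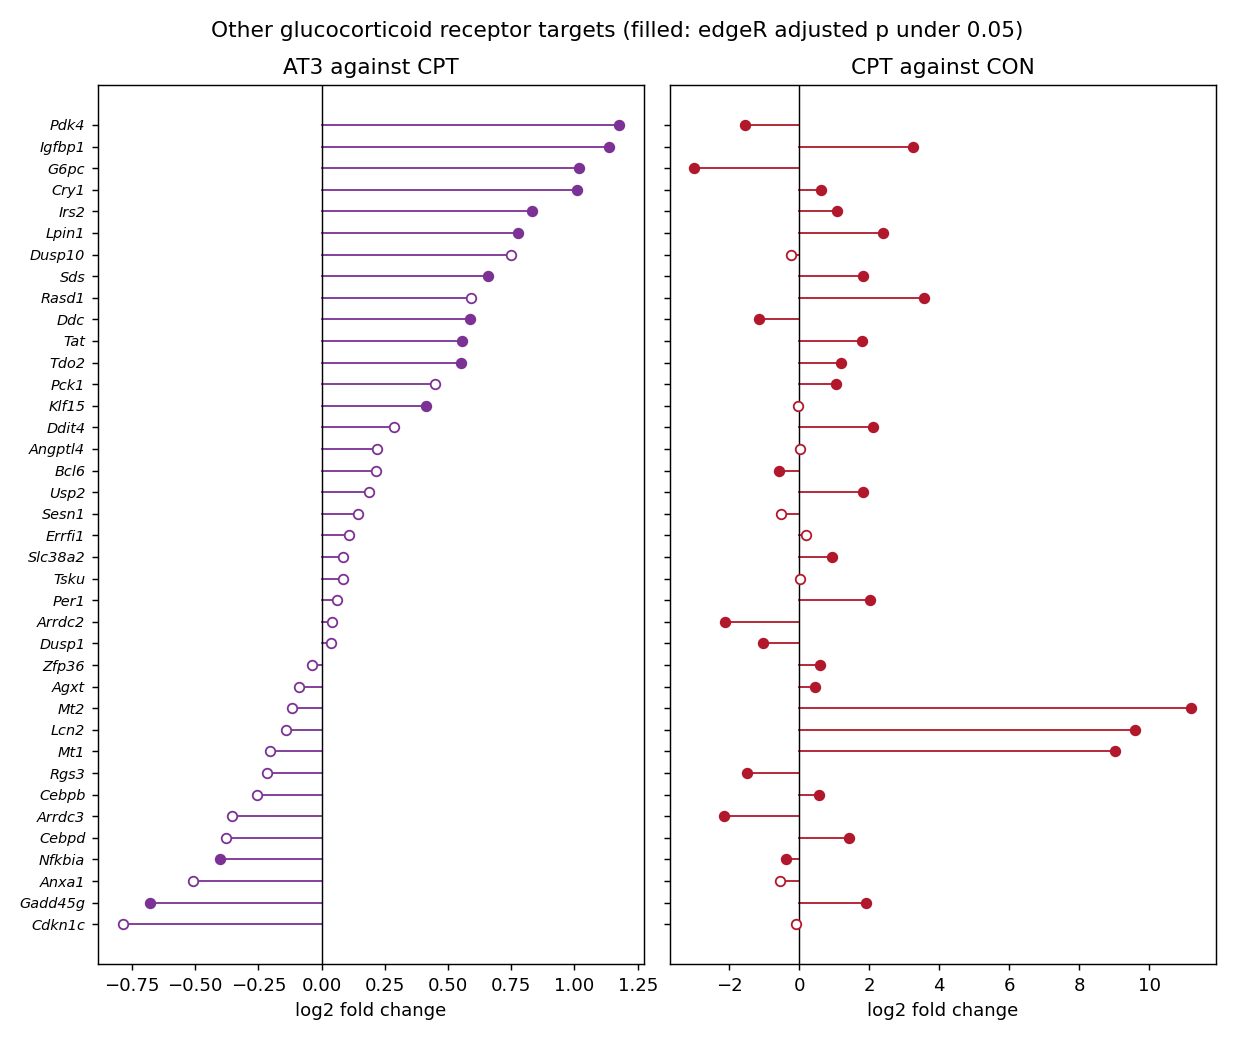
Log2 fold change of the 38 tested genes of the target list in AT3 against CPT (left) and in CPT against CON (right), from edgeR on TMM-scaled counts, with called genes filled; the 2 axes differ in scale. Pdk4, Igfbp1, G6pc and Cry1 lie above 1 in AT3 against CPT, and Mt2, Lcn2 and Mt1 lie far above the rest in CPT against CON (9.02 to 11.19).

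Cry1 and Per1 of the target list are also clock genes. Of 19 genes of the circadian clock, 5 were higher and 3 lower in AT3 than in CPT, with a median of 0.19 beside 0 for all genes. That is 42.1% called, beside 4.68% of all tested genes, 2.46% higher and 2.22% lower. Arntl, the activator of the core loop, averaged 6.57 ± 0.568 CPM in AT3 and 1.98 ± 0.595 CPM in CPT (log2 change 1.74, edgeR adjusted p = 0.000597). Dbp, an output factor of the clock, averaged 4.78 ± 0.483 CPM in AT3 and 19.7 ± 3.55 CPM in CPT (−2.04, adjusted p = 0.00199). The repressor Nr1d1 averaged 2.22 ± 0.320 CPM in AT3 and 4.91 ± 1.03 CPM in CPT (−1.14, adjusted p = 0.0101; 0.0603 without AT3 replicate 1), and Nfil3, which opposes Dbp, rose by 0.73 (adjusted p = 0.0108; up to 0.0556 without AT3 replicate 2). The list count was 4 without CPT replicate 2, 4 without AT3 replicate 1, 4 without AT3 replicate 2 and 5 without AT3 replicate 3. Corticosterone itself follows a daily rhythm, and the part of collection time in the difference between AT3 and CPT was not tested. Between CPT and CON, 7 of the 19 were higher in CPT and 5 lower, 63.2% beside the 60.8% called over all genes. The split was 10 higher and 3 lower on library totals, and 11 and 3 on log2(TPM + 1), so no direction is given. Npas2 averaged 0.0571 ± 0.0167 CPM in CPT and 4.85 ± 0.301 CPM in CON, and Ciart 5.01 ± 0.666 CPM in CPT and 0.725 ± 0.445 CPM in CON.

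Genes for transport and metabolism of steroids, a list that also holds the steroid receptor gene Nr3c2, were mostly lower in the injured livers. The data hold no measure of the hormone itself. Of 17 tested genes of this list (Hsd11b2, which inactivates the hormone, did not pass the filter), 12 were lower and 2 higher in CPT than in CON. Of all tested genes 30.8% were called lower and 30% higher. The list's median was −1.33, beside −0.02 for all genes. On log2(TPM + 1) 9 were lower and 4 higher, with a median of −0.51. Serpina6, the corticosteroid-binding globulin that liver secretes, averaged 16.7 ± 1.13 CPM in AT3, 20.3 ± 5.58 CPM in CPT and 310 ± 25.1 CPM in CON (log2 change of CPT against CON −3.93, edgeR adjusted p = 2.58e-11). Hsd3b5, a hydroxysteroid dehydrogenase of male mouse liver, averaged 0.735 ± 0.343 CPM in AT3, 0.974 ± 0.624 CPM in CPT and 171.6 ± 10.06 CPM in CON. Its relatives Hsd3b2 and Hsd3b3 were lower, with log2 changes of −3.18 and −1.75 in CPT against CON; these genes belong to a family of close paralogs, and how the counting divided shared reads is not stated. Cyp3a13, a drug- and steroid-oxidising P450, was higher in CPT (72.8 ± 15.4 CPM) than in CON (9.97 ± 2.26 CPM). In AT3 against CPT, 1 of the 17 was called (5.88%, beside 4.68% of all tested genes). This gene, Cyp3a11, the main mouse P450 of that family, averaged 177 ± 17.5 CPM in AT3, 402 ± 88.3 CPM in CPT and 1977 ± 349 CPM in CON (AT3 against CPT −1.18, edgeR adjusted p = 0.000836, kept without any 1 library). In AT3 against CON 12 were lower and 3 higher (median −1.49, beside −0.04 for all genes), where 32.9% of all tested genes were called lower and 31.5% higher.

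Of 28 chaperones and coregulators of the receptor, all tested, 5 were higher and 12 lower in CPT than in CON. That is 60.7% called, beside 60.8% of all tested genes. On library totals the split was 10 higher and 4 lower and on log2(TPM + 1) it was 15 and 2, so no direction is given for the list. Fkbp4, the co-chaperone that competes with the Fkbp5 product and favours nuclear entry, averaged 45.9 ± 2.58 CPM in AT3, 50.7 ± 0.788 CPM in CPT and 136 ± 2.003 CPM in CON (CPT against CON −1.43, edgeR adjusted p = 1.64e-09). Fkbp4 was lower in both injured groups while Fkbp5 was higher. The coactivator Ppargc1a, which works with the receptor on glucose-producing genes, averaged 10.4 ± 0.703 CPM in AT3, 8.24 ± 2.29 CPM in CPT and 2.51 ± 0.373 CPM in CON. Between AT3 and CPT, edgeR called 0 of the 28 (2 had an unadjusted p under 0.05), where it called 4.68% of all tested genes. DESeq2 also called 0 of the list and limma on log2(TPM + 1) called 0. The medians were −0.02 for the list and 0 for all genes.

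The genes with the most similar profiles over the 9 libraries were found by the root-mean-square distance between mean-centred log2 CPM values, where 0 is an identical shape. For Nr3c1 they were Sp3, at 0.042, and Mbnl1, at 0.063, where the median gene lay at 0.500. For Hsd11b1 they were Cxcl12 (0.075) and Prlr (0.079), with the median gene at 0.698. Fkbp5 had Cyp17a1 (0.133) and Trp53inp1 (0.158) nearest, with the median at 1.86, and Zbtb16 had Bcl2l11 (0.166) and Prcp (0.241), with the median at 1.12. Tsc22d3 was nearest to Chka (0.139) and Lgalsl (0.167), Sgk1 to Ggact (0.086) and Dhdh (0.095), and Klf9 to Mib1 (0.078) and Isg20l2 (0.087), with medians of 0.721, 0.530 and 0.479. No member was among the nearest of another.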

How the data were processed

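RNA was taken from liver with a column kit and made into SMARTer mRNA libraries, per the labels' protocols. The authors deposited estimated counts and TPM per gene, per the file headers; no header or label names the quantifier. Builds GRCm38, mm10 and GRCm39 appear, without a role, per the submitters' processing notes. Estimated counts were rounded to whole numbers; 25522 of 57010 genes had a count and 13686 passed edgeR's filterByExpr. Totals of 21485021 to 28480479 limit precision for Zbtb16 more than for the other members. Libraries of a group differed beyond sampling noise (chi-square per degree of freedom 7.35 to 104), so none were merged.

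All 9 libraries were fitted with 1 term per group by edgeR 4.0.16's quasi-likelihood test (R 4.3.3, TMM scaling), with Benjamini-Hochberg adjustment over all tested genes. Alternatives were DESeq2 1.42.0, its size factors in edgeR, library totals, no count filter, limma 3.58.1 on log2(TPM + 1) and log2(TPM + 0.1), the 6 libraries of a comparison alone, omission of mitochondrial and the most abundant genes, a replicate block, and leaving out each library. Members, gene lists and tests were chosen with earlier results of these data known. Besides the members, the text names up to 5 called genes per list and comparison, those with the smallest p and a mean of at least 1 CPM in a group, and the 2 nearest profiles of each member; others are said to be named after their values were seen, and repeated genes in a further comparison are given for their levels. Group mean columns were not used. Coordinates are from GENCODE M21 (GRCm38), by Ensembl ID.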

Additional observations from a re-analysis of the deposited data

How the results depend on the processing

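Hsd11b1, Fkbp5 and Zbtb16 in both comparisons with CON, and Tsc22d3 in CPT against CON, kept direction and call under all 18 alternatives. Library totals changed the scaling alone, while the TPM alternatives changed the unit, the scaling and the test (limma) together. Of called genes, 49.3% were higher in CPT than in CON on TMM scaling, 72.7% on library totals and 80.5% on log2(TPM + 1); for AT3 against CON these shares were 48.9%, 70.0% and 80.5%, and for AT3 against CPT 52.6%, 48.4% and 64.4%. Log2 changes that turned sign on log2(TPM + 1) and log2(TPM + 0.1) were, in CPT against CON, Nr3c1 (0.037 and 0.044) and Klf9 (0.028 and 0.031), and, in AT3 against CON, Nr3c1 (0.13 and 0.16), Tsc22d3 (0.24 and 0.24), Sgk1 (0.042 and 0.055) and Klf9 (0.38 and 0.42; 0.13 on library totals). Nr3c1 in AT3 against CPT was −0.12 without CPT replicate 3 and −0.018 without AT3 replicate 2, within −0.12 to 0.11 over all such fits. Members called on log2(TPM + 1) and on log2(TPM + 0.1) numbered 4 and 4 in CPT against CON, 0 and 0 in AT3 against CPT, and 4 and 4 in AT3 against CON; on library totals 1 was called in AT3 against CPT and 3 in AT3 against CON. In AT3 against CPT all genes called numbered 186 on library totals, 1174 with no filter, 45 on log2(TPM + 1) and 32 on log2(TPM + 0.1). On those 2 TPM scales steroid genes called numbered 0 and 0, other targets 1 and 0 (6 on library totals), relatives 0 and 0 (5 with no filter, 1 with the replicate block) and clock genes 2 and 1 (4 on library totals). Without 1 library at a time, AT3 against CPT gave 172 to 1316 genes, 2 to 3 members, 0 to 1 receptor-complex genes, 1 to 2 steroid genes, 3 to 15 other targets, 1 to 4 relatives and 4 to 9 clock genes. The cause of these changes was not tested. No label says that the replicate numbers pair samples, and correlations of same-numbered libraries lay between −0.038 and 0.076, so the numbers were not taken as pairs. Between AT3 and CPT, however, these correlations were 0.052, 0.076 and 0.067. There 6 of 6 libraries were closest to their own number, a hint from the data and not the design. In the pairs with CON 2 of 12 were. Each correlation was read from both of its libraries, so these matches are not independent of each other and the hint is weak. With the replicate block 8154 genes were called in CPT against CON, 451 in AT3 against CPT and 8648 in AT3 against CON; Zbtb16 in AT3 against CPT had an adjusted p of 0.05 and Klf9 in AT3 against CON one of 0.0657. Depth limits Zbtb16 in CON, at 0.957 to 2.14 CPM.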

Other observations

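Relatives of the 7 genes moved in both directions. Of 40 listed, 34 passed the filter, and in CPT against CON 8 were higher and 17 lower. That is 73.5% called, beside 60.8% of all tested genes, 30% higher and 30.8% lower. The split was 10 and 9 on library totals and 14 and 6 on log2(TPM + 1). Tsc22d1, a TSC22 family member, averaged 16.0 ± 0.980 CPM in AT3, 20.7 ± 5.94 CPM in CPT and 87.8 ± 10.8 CPM in CON. Among Krüppel-like factors, Klf13 averaged 20.8 ± 0.973 CPM in AT3, 15.5 ± 4.40 CPM in CPT and 5.37 ± 1.02 CPM in CON, and Klf6 averaged 6.93 ± 0.989, 7.87 ± 1.59 and 2.61 ± 0.344 CPM in the same groups, so both were higher in injured livers, where Klf9 was lower on TMM scaling and not on TPM. Klf10, Klf2 and Klf7, named after their values were seen, had lower mean TPM in both injured groups than in CON. For Klf10 these were 3.09 ± 0.492 TPM in AT3, 2.46 ± 0.412 TPM in CPT and 4.10 ± 1.08 TPM in CON.

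Between AT3 and CPT, 3 of the 34 relatives were called by edgeR (8.82%, beside 4.68% of all tested genes). Klf3, a transcriptional repressor, rose to 40.2 ± 1.45 CPM in AT3, against 27.4 ± 2.96 CPM in CPT (adjusted p = 0.00721, kept without any 1 library). Zbtb20, a zinc-finger repressor of the same BTB class as Zbtb16, fell to 50.3 ± 2.92 CPM in AT3, against 79.0 ± 15.2 CPM in CPT (adjusted p = 0.0287, up to 0.131 without AT3 replicate 1). The third was Klf15, which the target list also holds.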
